A study of Mus musculus with 6 samples.

Results

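The Wnt ligands, their receptors and their secreted modulators were followed in RNA from mouse embryonic fibroblasts (MEF), from muscle, and from cells that the titles call Direct reprogramming and the source labels a Transdifferentiontion cell, here the transdifferentiated cells. The members were every gene of the deposited count table whose symbol begins as Wnt, Fzd, Sfrp, Dkk or Rspo with its number, with Lgr4, Lgr5, Lgr6, Wif1 and Frzb, which gave 46 of 55286 symbols. They were 19 Wnt ligands, 10 Frizzled receptors, 6 secreted inhibitors that bind Wnt, 4 Dickkopf inhibitors, 4 R-spondins and 3 R-spondin receptors. Each group had 2 mRNA libraries, sequenced from total RNA, and the study's title asks what trans-differentiation does to the DNA methylation laid down in development. The columns of the table are named STauMEF, SEndomuscle and SiMuscle, and these names are not explained. No strain, genotype, age, reprogramming factor or time after conversion is given in the sources used here, nor whether replicates were separate cultures or animals, so every p-value here reflects only how far these libraries spread, which may be technical.

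Wnt proteins are lipid-modified ligands that bind a Frizzled receptor together with a co-receptor. With Lrp5 or Lrp6 as co-receptor they stop the breakdown of beta-catenin, which then acts with Tcf and Lef factors in the nucleus, and with other co-receptors they steer cell shape and polarity. Sfrp proteins, Frzb and Wif1 bind Wnt outside the cell, Dickkopf proteins such as Dkk1 and Dkk2 occupy Lrp5 and Lrp6, and R-spondins bind Lgr receptors and keep Frizzleds at the cell surface. In the embryo, Wnt signals from tissues next to the somites help to start the muscle programme, and in adult muscle they act on satellite cells and at the nerve-muscle synapse.

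Libraries held 16817033 to 24584951 counted reads, and levels are given as CPM, a library's counts scaled to a common total with TMM factors. Where a library shows 0 counts, up to 3 remain possible from counting error alone, a level of 0.128 to 0.182 CPM depending on the library. Replicates of a group had Spearman correlations of log2 CPM of 0.972 to 0.984 and differed by more than sampling noise. All 12 skeletal muscle markers were higher in muscle and in transdifferentiated cells than in MEF (edgeR quasi-likelihood test, Benjamini-Hochberg adjusted p under 0.05 over 17400 genes, the rule for every call here), and Myf6 was at 0 counts in MEF. Of 12 fibroblast markers 9 were lower in muscle than in MEF. In transdifferentiated cells 5 of them were below MEF, 2 above MEF and 7 above muscle. The 12 macrophage markers summed to 76.2 and 79.4 CPM in MEF, 6.56 and 4.32 CPM in muscle, where Ptprc, Adgre1 and Tyrobp were at 0, and 899.7 and 758 CPM in transdifferentiated cells, where all 12 were higher than in MEF. The 9 endothelial markers summed to at most 24.2 CPM in any library and to 3.37 and 1.64 CPM in muscle. The 9 neural and Schwann cell markers summed to 76.9 and 49.9 CPM in MEF, 11.2 and 11.6 CPM in muscle and 39.6 and 63.3 CPM in transdifferentiated cells. The part of these cell types in the changes below was not tested, and in such bulk RNA fewer cells of a type cannot be told apart from less RNA per cell.

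Of the 46 members 34 had enough counts to be tested. There were 23 called between muscle and MEF, 15 between transdifferentiated cells and MEF and 15 between transdifferentiated cells and muscle, while 35.6%, 27.3% and 10% of all tested genes were called in those comparisons. Between muscle and MEF 9 were higher and 14 lower in muscle, where 17.3% of all tested genes were higher and 18.3% lower, with a median log2 fold change of -0.87 over the 34 and 0.00 over all genes. Between transdifferentiated cells and MEF 6 were higher and 9 lower (15.9% and 11.3% of all tested genes), with medians of -0.53 and 0.07. Between transdifferentiated cells and muscle 12 were higher and 3 lower in the transdifferentiated cells (7.58% and 2.46% of all tested genes), with medians of 0.39 and 0.03. Single libraries moved 4 of these counts. Without Muscle replicate 2, 5 members were higher in muscle than in MEF and 5 higher in transdifferentiated cells than in muscle. Without MEF replicate 1 or Transdifferentiated replicate 1, 4 members were lower in transdifferentiated cells than in MEF, and 5 without Transdifferentiated replicate 2. Only 1 member was lower in transdifferentiated cells than in muscle without Muscle replicate 1, Muscle replicate 2 or Transdifferentiated replicate 1. The 3 comparisons share libraries, and a low gene that passed the count filter through a single group had to differ, so these counts describe the module and are no test of it. In all, 26 of the 34 tested members were called in at least 1 comparison and 8 (Wnt6, Wnt11, Fzd2, Fzd4, Fzd5, Fzd6, Fzd8 and Dkk2) in none. The share of all tested genes called in at least 1 comparison was not counted, so these 2 numbers have no reference beside them. Of the 12 members that were not tested, Wnt3a, Wnt8a, Wnt8b, Wnt9b, Sfrp5, Dkk4 and Rspo4 had 0 counts in all 6 libraries, and Wnt1, Wnt3, Wnt5b, Wnt7a and Dkk1 stayed at or below a group mean of 0.382 CPM.

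**Figure D1:**
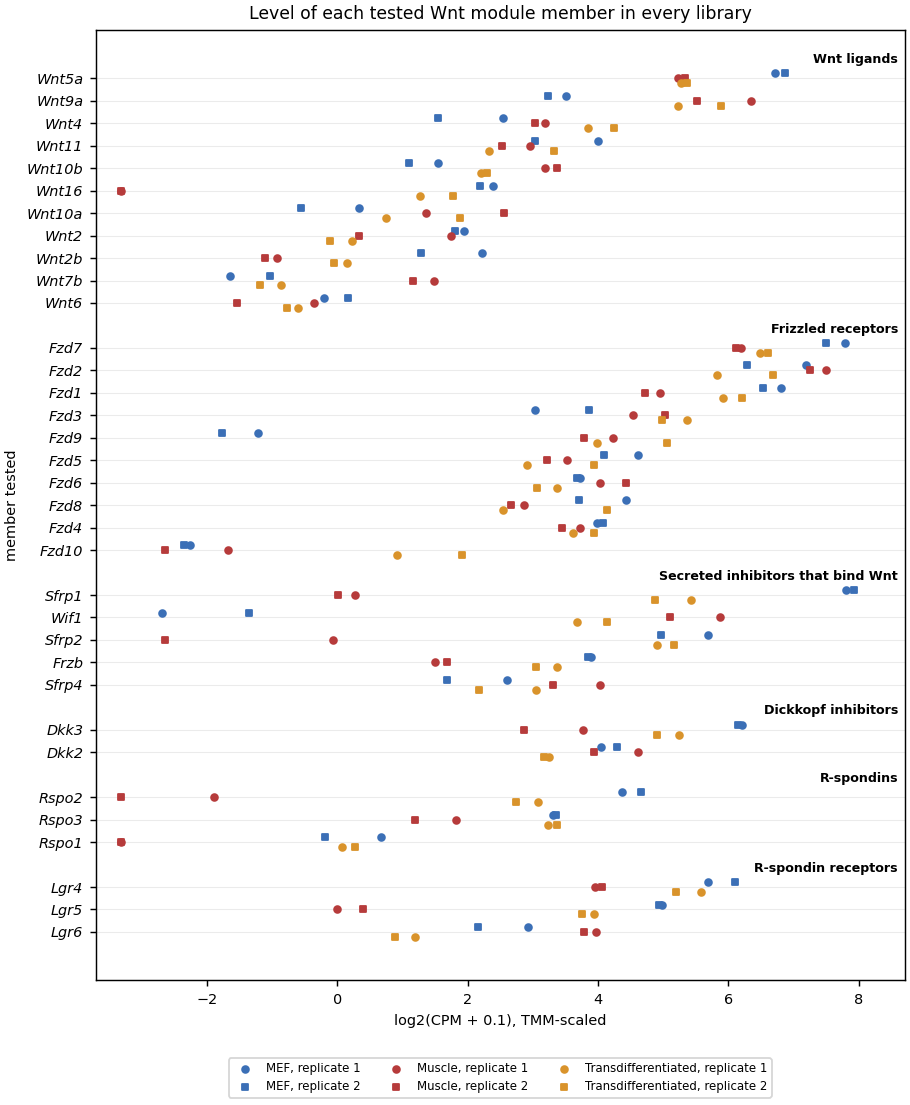
Level of each of the 34 tested members on a log2(CPM + 0.1) axis, with 1 point per library, coloured by group and shaped by replicate, and members ordered by role. Sfrp1, Rspo2 and Lgr5 are far lower in both muscle libraries (red) than in the other 4, while Wif1 and Fzd9 are far lower in both MEF libraries (blue).

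The DNA before the start of 5 members is shown as an illustration of 2 of the call patterns. Wif1 and Wnt9a were higher in muscle and in transdifferentiated cells than in MEF, and hold a match to a motif searched. Sfrp2, Rspo1 and Wnt16 were at or near 0 in muscle with no call between transdifferentiated cells and MEF, and hold none. They were chosen after calls and matches were known, so the contrast between them is no result. Fzd9, called higher like Wif1 and Wnt9a against MEF, has a window with none of these motifs, most of it inside the annotated gene and so not printed, and Frzb, called lower in muscle like Sfrp2, has a window with CAGCTG and CTTTGA. The sequences are from RefSeq on GRCm38.p6, the mm10 assembly, on the plus strand, which is the strand of all 5 genes. They run from 250 bases before the RefSeq start to that start, or to the GENCODE gene start where it comes earlier. Capitals mark CAGCTG and CAGGTG on either strand, 2 forms of the E-box that MyoD-type factors bind, and CTTTGA on either strand, the core of the site of Tcf and Lef factors.
Wif1 chr10:121033754-121033959: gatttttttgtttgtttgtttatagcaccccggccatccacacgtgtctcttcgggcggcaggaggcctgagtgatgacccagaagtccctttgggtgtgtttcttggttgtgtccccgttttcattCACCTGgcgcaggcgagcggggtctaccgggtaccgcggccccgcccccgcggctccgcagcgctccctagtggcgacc
Wnt9a chr11:59306680-59306927: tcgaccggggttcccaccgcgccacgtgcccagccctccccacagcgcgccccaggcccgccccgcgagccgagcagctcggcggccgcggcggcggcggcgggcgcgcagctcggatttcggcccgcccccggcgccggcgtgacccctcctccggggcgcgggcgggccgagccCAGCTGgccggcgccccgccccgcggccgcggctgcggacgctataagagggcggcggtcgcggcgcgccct
Sfrp2 chr3:83766071-83766320: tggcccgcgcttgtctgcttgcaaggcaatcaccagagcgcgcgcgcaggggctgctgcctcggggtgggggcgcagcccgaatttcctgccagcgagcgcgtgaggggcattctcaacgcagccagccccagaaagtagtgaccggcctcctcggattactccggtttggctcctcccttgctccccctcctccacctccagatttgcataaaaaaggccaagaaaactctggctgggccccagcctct
Rspo1 chr4:124986180-124986429: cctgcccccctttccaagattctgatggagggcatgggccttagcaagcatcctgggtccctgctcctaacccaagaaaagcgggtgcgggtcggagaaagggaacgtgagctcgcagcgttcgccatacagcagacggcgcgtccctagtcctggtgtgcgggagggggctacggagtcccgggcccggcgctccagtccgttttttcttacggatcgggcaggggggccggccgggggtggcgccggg
Wnt16 chr6:22287977-22288226: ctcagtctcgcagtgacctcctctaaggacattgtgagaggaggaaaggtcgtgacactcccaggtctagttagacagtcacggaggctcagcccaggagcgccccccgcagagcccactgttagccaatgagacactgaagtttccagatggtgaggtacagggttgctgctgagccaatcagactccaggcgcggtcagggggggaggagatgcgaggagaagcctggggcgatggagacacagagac
A single match stands in Wif1 (CAGGTG, read as its reverse complement) and a single match in Wnt9a (CAGCTG), while the windows of Sfrp2, Rspo1 and Wnt16 hold none of the 3 words. Over the 250 bases before all 32851 RefSeq starts, CAGCTG occurred in 13.0%, CAGGTG in 17.2% and CTTTGA in 13.8% of windows. RefSeq windows were found for 31 of the members, 34 windows in all, of which 4 held CAGCTG, 10 CAGGTG and 5 CTTTGA. The member windows were rich in CpG, the target of DNA methylation, with a median of 21.5 CpG against 6 in all windows. The Wnt9a window held 48 CpG, more than 99.8% of all windows held, whereas that of Wnt16 held 9.

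The leading Wnt ligand differed between MEF and the other groups. In CPM per kilobase of exon, which allows levels of different genes to be compared, Wnt5a made up 54.1% ± 8.20 (SD, n = 2) of the summed ligand level in MEF and Wnt9a 11.7% ± 0.703. In muscle Wnt9a made up 54.7% ± 9.94 and Wnt5a 15.0% ± 4.08, and in transdifferentiated cells the shares were 48.4% ± 3.59 and 17.7% ± 3.54. The summed level itself was 26.4 ± 1.98 CPM per kilobase in MEF, against 34.2 ± 7.47 for muscle and 29.6 ± 7.23 for transdifferentiated cells. The transdifferentiated libraries, at 24.5 and 34.8, spanned both MEF libraries and 1 muscle library.

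Wnt9a (chromosome 11, 59306928 to 59333552 in mm10, from GENCODE as for the other genes), a ligand known from joint formation, was at 11.3 and 9.32 CPM in the 2 MEF libraries, 81.0 and 45.8 CPM in muscle and 37.5 and 59.0 CPM in transdifferentiated cells. All 4 libraries of muscle and transdifferentiated cells lay above both of MEF. Its log2 fold change was 2.62 ± 0.37 (SE) for muscle and 2.23 ± 0.37 for transdifferentiated cells, both against MEF (edgeR adjusted p = 7.8e-04 and 0.00249), and -0.40 ± 0.35 between transdifferentiated cells and muscle (adjusted p = 0.635). Wnt5a (chromosome 14, 28504750 to 28527448), the best known ligand of the branch that does not use beta-catenin, went the other way, at 105 and 117 CPM in MEF, 37.2 and 40.3 CPM in muscle and 38.7 and 41.2 CPM in transdifferentiated cells. Both MEF libraries lay above the other 4. Wnt5a fell in both comparisons with MEF, with log2 fold changes of -1.52 ± 0.24 in muscle and -1.48 ± 0.24 in transdifferentiated cells (edgeR adjusted p = 0.00133 and 0.00221).

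Wnt4, a ligand required for kidney tubule formation, stood at 5.72 and 2.81 CPM in MEF, 9.03 and 8.09 CPM in muscle and 14.2 and 18.8 CPM in transdifferentiated cells. The 3 groups did not overlap, and the transdifferentiated cells were the highest. The rise over MEF was called in transdifferentiated cells (1.96 ± 0.40, edgeR adjusted p = 0.00747) and not in muscle (1.01 ± 0.40, adjusted p = 0.0814, but 0.0211 without MEF replicate 1). Wnt10b, known for holding back fat cell formation, was at 2.81 and 2.04 CPM in MEF, 8.99 and 10.2 CPM in muscle and 4.49 and 4.84 CPM in transdifferentiated cells. It rose in muscle (1.99 ± 0.37, edgeR adjusted p = 0.00291), while in transdifferentiated cells, which lay between, the difference from MEF was not called (0.95 ± 0.36, adjusted p = 0.0866).

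Wnt16, a ligand studied mostly in bone, was not detected in muscle at this depth. Both muscle libraries had 0 counts of it, the MEF libraries 93 and 92 and the transdifferentiated ones 41 and 69, or 5.12 and 4.46 CPM in MEF and 2.30 and 3.34 CPM in transdifferentiated cells. Against a floor of 3 counts per muscle library, Wnt16 was at least 30.9-fold lower in muscle than the MEF mean (edgeR adjusted p = 1.6e-04) and at least 18.2-fold higher in transdifferentiated cells than in muscle (edgeR adjusted p = 0.0013). Between transdifferentiated cells and MEF its log2 fold change was -0.76 ± 0.44 (adjusted p = 0.248).

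The other ligands with a call had low levels. Wnt2b fell from 3.45 ± 1.58 CPM in MEF to 0.395 ± 0.0433 in muscle and 0.941 ± 0.0992 in transdifferentiated cells (edgeR adjusted p = 0.00328 and 0.0304). Wnt2, at 3.57 ± 0.244 CPM in MEF, fell to 0.945 ± 0.173 CPM in transdifferentiated cells (edgeR adjusted p = 0.0364). Wnt7b rose to 2.41 ± 0.393 CPM in muscle from 0.304 ± 0.119 in MEF (edgeR adjusted p = 0.00578) and was lower in transdifferentiated cells than in muscle, at 0.394 ± 0.0783 CPM (adjusted p = 0.027). It passed the count filter through muscle alone, so it had to differ and these p-values are no separate support. Wnt10a rose from 0.869 ± 0.405 CPM in MEF to 4.12 ± 2.34 in muscle (edgeR adjusted p = 0.0257). Wnt11, which guides cell movements in the embryo, was at 4.94 to 15.8 CPM over the 6 libraries with no call, and Wnt6 at 0.243 to 1.02 CPM. Several of these calls rested on single libraries. Wnt10a in muscle was not called without MEF replicate 2 (adjusted p = 0.0879) or Muscle replicate 2 (0.195). Wnt2 was not called without any 1 of the MEF or Transdifferentiated libraries (adjusted p = 0.0532 to 0.113), nor Wnt2b in transdifferentiated cells without Transdifferentiated replicate 1 (0.0867) or 2 (0.103), Muscle replicate 1 (0.0503) or MEF replicate 1 (0.241). Wnt7b between transdifferentiated cells and muscle was not called without any 1 of those 4 libraries (0.0776 to 0.16).

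**Figure D2:**
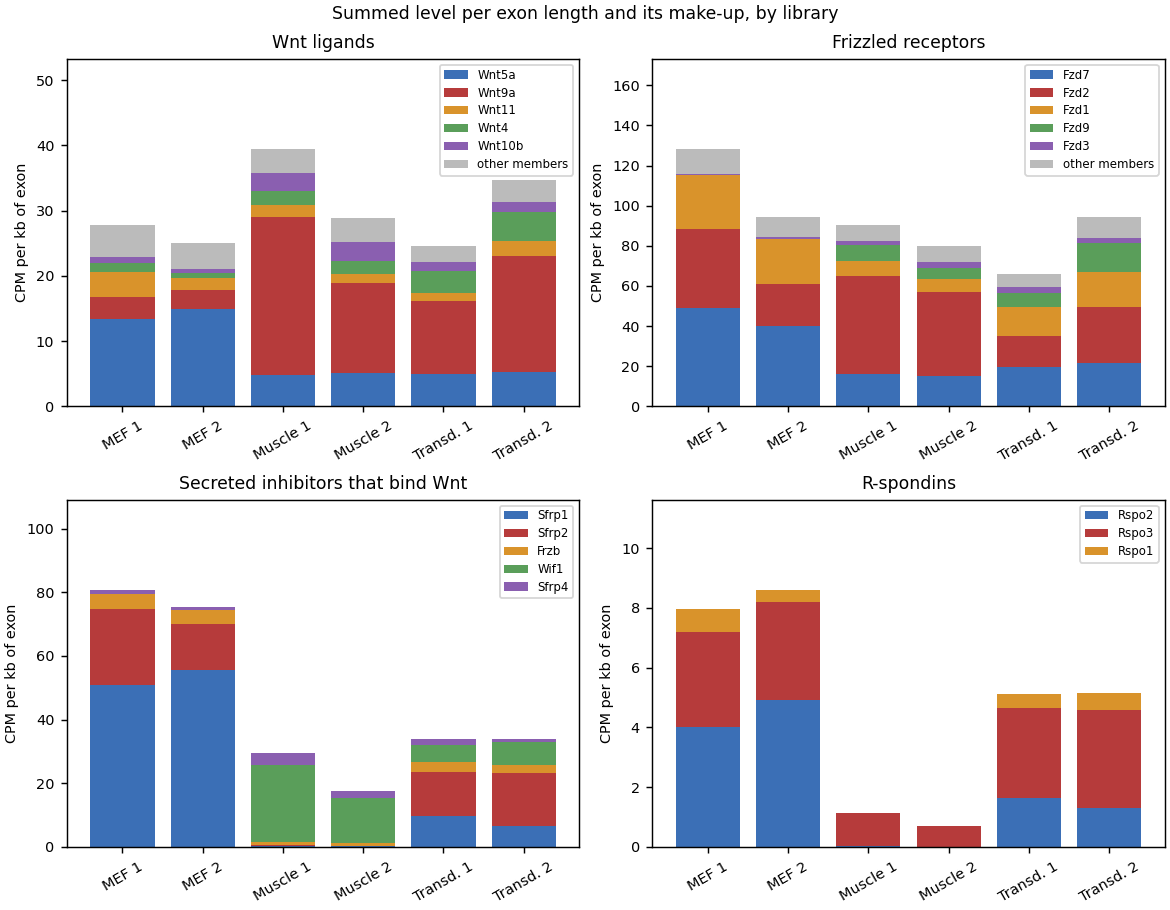
Stacked bars of CPM per kilobase of exon in each of the 6 libraries for 4 roles. Each named member is a segment, the remaining members are in grey, and the vertical axes start at 0. Wnt5a (blue) leads the ligands in both MEF libraries and Wnt9a (red) in the other 4, and the secreted inhibitors are mostly Sfrp1 and Sfrp2 in MEF, Wif1 in muscle and a mixture in transdifferentiated cells.

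Among the Frizzled receptors, Fzd1, Fzd2 and Fzd7, which form a closely related subfamily, were the most abundant in MEF, and Fzd9 joined them in the other groups. Per kilobase, Fzd7 made up 40.2% ± 2.97 of the summed Frizzled level in MEF, against 18.4% ± 0.912 for muscle and 26.3% ± 4.93 for transdifferentiated cells. Fzd2 made up 26.7% ± 5.88, 53.1% ± 1.43 and 26.6% ± 4.57, Fzd1 22.1% ± 1.83, 7.95% ± 0.192 and 20.2% ± 2.25, and Fzd9 0.101% ± 0.0159, 8.22% ± 1.14 and 12.8% ± 3.52 in the same order. The summed level was 111 ± 24.0 CPM per kilobase in MEF, against 85.3 ± 7.37 for muscle and 80.1 ± 19.99 for transdifferentiated cells.

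Fzd9 (chromosome 5, 135248938 to 135251230), a receptor studied in bone and brain, had 6 and 4 counts in the MEF libraries, or 0.330 and 0.194 CPM. It was at 18.7 and 13.6 CPM in muscle and 15.7 and 33.1 CPM in transdifferentiated cells. Muscle and transdifferentiated cells overlapped, and all 4 of their libraries were far above MEF. Fzd9 rose by 5.93 ± 0.57 on the log2 scale in muscle and by 6.52 ± 0.57 in transdifferentiated cells (edgeR adjusted p = 8.5e-05 and 6.9e-05). Fzd3, which guides axons and cell polarity, also rose in both. Its levels were 8.09 and 14.4 CPM in MEF, 23.1 and 32.3 CPM in muscle and 41.1 and 31.5 CPM in transdifferentiated cells, with log2 fold changes of 1.30 ± 0.35 and 1.69 ± 0.36 against MEF (edgeR adjusted p = 0.0197 and 0.00834). The muscle call of Fzd3 was lost without MEF replicate 1 (adjusted p = 0.0946) or Muscle replicate 2 (0.145).

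Fzd7 (chromosome 1, 59482424 to 59486955), the receptor through which Wnt7a acts on satellite cells, was at 222 and 181 CPM in MEF, 72.8 and 69.1 CPM in muscle and 89.1 and 97.6 CPM in transdifferentiated cells. MEF lay above both other groups, and Fzd7 fell in both (-1.50 ± 0.24 and -1.11 ± 0.24, edgeR adjusted p = 0.00142 and 0.00897; 0.0521 for the second without Transdifferentiated replicate 1). Fzd1 was at 112 and 92.7 CPM in MEF, 30.7 and 26.3 CPM in muscle and 60.2 and 73.4 CPM in transdifferentiated cells. The 3 groups did not overlap. Fzd1 fell in muscle (-1.85 ± 0.26, edgeR adjusted p = 7.2e-04) and was higher in transdifferentiated cells than in muscle (1.23 ± 0.26, adjusted p = 0.0176), while its difference between transdifferentiated cells and MEF was not called (-0.62 ± 0.26, adjusted p = 0.108). The difference from muscle was not called without Muscle replicate 1 or 2 (adjusted p = 0.106 and 0.187) or Transdifferentiated replicate 2 (0.0738).

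Fzd10 was the single Frizzled called higher in transdifferentiated cells than in both references. Its 32 and 76 counts in transdifferentiated cells, or 1.80 and 3.68 CPM, stood against 2 and 2 in the MEF libraries and 5 and 1 in the muscle libraries. Fzd10 passed the count filter through transdifferentiated cells alone, so it had to differ and its p-values are no separate support. Its log2 fold change was 4.65 ± 0.82 against MEF and 4.17 ± 0.78 against muscle (edgeR adjusted p = 0.00335 and 0.0104; 0.0877 for the second without Muscle replicate 2). The 12 macrophage markers, with sums of 899.7 and 758 CPM there, were higher in the same 2 libraries, and their part in this difference was not tested. Another 5 Frizzleds had no call in any comparison. Fzd2, the most abundant Frizzled per kilobase in muscle, was at 145 and 77.9 CPM in MEF, 179 and 153 CPM in muscle and 56.3 and 103 CPM in transdifferentiated cells, so that muscle was highest, while MEF and transdifferentiated cells overlapped. Its difference between transdifferentiated cells and muscle (-1.06 ± 0.38, adjusted p = 0.132) was called when only those 4 libraries were fitted (0.0436), and also when MEF replicate 1 (0.0446), MEF replicate 2 (0.0461) or Transdifferentiated replicate 2 (0.0453) was left out. Fzd4, Fzd5, Fzd6 and Fzd8 ranged over the 6 libraries from 10.8 to 16.8, 7.41 to 24.5, 8.22 to 21.3 and 5.73 to 21.4 CPM. Fzd5 and Fzd8 were called lower in muscle than in MEF without MEF replicate 2 (adjusted p = 0.0496 and 0.0295) or without Transdifferentiated replicate 1 (0.0366 and 0.013) or 2 (0.0352 and 0.0132), and lower in transdifferentiated cells than in MEF without Transdifferentiated replicate 2 (0.0327 and 0.0351). By DESeq2 Fzd8 was called lower in muscle than in MEF (0.0249) and Fzd6 lower in transdifferentiated cells than in muscle (0.0338).

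The secreted inhibitors that bind Wnt were exchanged between MEF and muscle, and transdifferentiated cells held both kinds. Their summed level was 78.0 ± 3.89 CPM per kilobase in MEF, against 23.6 ± 8.45 for muscle and 34.0 ± 0.0609 for transdifferentiated cells. Sfrp1 made up 68.4% ± 7.67 of it in MEF, Wif1 80.9% ± 1.37 in muscle and Sfrp2 44.8% ± 5.64 in transdifferentiated cells, where Sfrp1 and Wif1 made up 24.1% ± 6.52 and 18.3% ± 4.14.

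Sfrp1 (chromosome 8, 23411502 to 23449632) was at 222 and 243 CPM in MEF, 1.11 and 0.912 CPM in muscle and 42.7 and 29.1 CPM in transdifferentiated cells. The 3 groups did not overlap, and the transdifferentiated cells were between. Its log2 fold change was -7.83 ± 0.37 for muscle and -2.70 ± 0.28 for transdifferentiated cells, both against MEF (edgeR adjusted p = 2.1e-06 and 2.0e-04), and 5.13 ± 0.34 in transdifferentiated cells against muscle (adjusted p = 1.3e-04). Sfrp2, whose promoter is shown above, was at 51.4 and 31.1 CPM in MEF, 0.852 and 0.0608 CPM in muscle and 29.8 and 35.7 CPM in transdifferentiated cells. Here the transdifferentiated libraries overlapped with MEF, and both groups were far above muscle. The log2 fold change of Sfrp2 was -6.35 ± 0.68 in muscle against MEF and 6.02 ± 0.68 in transdifferentiated cells against muscle (edgeR adjusted p = 1.6e-04 and 9.1e-04), with -0.33 ± 0.50 between transdifferentiated cells and MEF (adjusted p = 0.671). The muscle libraries held 20 and 1 counts of it. Frzb, the Sfrp relative first known from cartilage, followed the same order, at 14.8 and 14.2 CPM in MEF, 2.73 and 3.10 CPM in muscle and 10.3 and 8.17 CPM in transdifferentiated cells. It fell in muscle (-2.32 ± 0.33, edgeR adjusted p = 7.6e-04) and was higher in transdifferentiated cells than in muscle (1.66 ± 0.33, adjusted p = 0.0134), a call lost without Muscle replicate 1 (0.121) or 2 (0.0968) or Transdifferentiated replicate 1 (0.0593).

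Wif1 (chromosome 10, 121033960 to 121100650), whose WIF domain binds Wnt, had 1 and 6 counts in MEF. It reached 58.7 and 34.1 CPM in muscle and 12.6 and 17.5 CPM in transdifferentiated cells, against 0.0550 and 0.291 CPM in MEF. Every library of the other groups was above MEF, and both muscle libraries were above both transdifferentiated ones. Wif1 rose by 7.97 ± 0.61 on the log2 scale in muscle and by 6.35 ± 0.60 in transdifferentiated cells (edgeR adjusted p = 2.2e-05 and 1.0e-04). It was lower in transdifferentiated cells than in muscle (-1.62 ± 0.40, adjusted p = 0.0364), which was not called without Muscle replicate 1 (0.295), Muscle replicate 2 (0.0721) or Transdifferentiated replicate 1 (0.138). Sfrp4 was at 5.997 and 3.11 CPM in MEF, 16.2 and 9.79 CPM in muscle and 8.20 and 4.40 CPM in transdifferentiated cells. Its rise from MEF to muscle (1.52 ± 0.47, edgeR adjusted p = 0.0349) was not called without MEF replicate 2 (0.13), Muscle replicate 1 (0.209) or Muscle replicate 2 (0.0532). Fibroblast markers moved in the same direction as Sfrp1, Sfrp2 and Frzb between MEF and muscle, with 9 of 12 lower in muscle and none at 0. In transdifferentiated cells 7 of the 12 were higher than in muscle and 0 lower (7.58% and 2.46% of all tested genes). Their summed levels were 34900.5 and 23204 CPM in MEF, 15861 and 9091 CPM in muscle and 16634 and 19341 CPM in transdifferentiated cells. Col1a1, with means of 13532, 6070 and 7102.5 CPM in that order and no call, held the largest part of these sums. The part of the fibroblast markers in these changes was not tested.

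Dkk3 was the main Dickkopf gene of MEF and transdifferentiated cells. Unlike its relatives Dkk3 is not known as a strong ligand of Lrp6. It was at 73.7 and 70.9 CPM in MEF, 13.5 and 7.17 CPM in muscle and 37.6 and 29.7 CPM in transdifferentiated cells, in non-overlapping steps. It fell in muscle (-2.80 ± 0.35, edgeR adjusted p = 3.9e-04) and in transdifferentiated cells (-1.10 ± 0.33, adjusted p = 0.037), and was higher in transdifferentiated cells than in muscle (1.69 ± 0.34, adjusted p = 0.0148). The second of these was not called without any 1 of the MEF or Transdifferentiated libraries (adjusted p = 0.0551 to 0.12), and the third without Muscle replicate 2 (0.126). Dkk2, at 16.4 and 19.6 CPM in MEF, 24.5 and 15.3 CPM in muscle and 9.38 and 8.95 CPM in transdifferentiated cells, missed the threshold for a lower level in transdifferentiated cells than in either reference, MEF (-0.97 ± 0.32, edgeR adjusted p = 0.0543; 0.0301 by DESeq2 and 0.0478 with RLE size factors) or muscle (-1.12 ± 0.32, adjusted p = 0.0662; 0.024 by DESeq2). Dkk1 had 6 and 7 counts in MEF, 0 in both muscle libraries and 1 and 1 in transdifferentiated cells, too few to test.

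All 3 tested R-spondins were lower in muscle than in both other groups. Their summed level was 8.28 ± 0.458 CPM per kilobase in MEF, against 0.929 ± 0.312 for muscle and 5.15 ± 0.0248 for transdifferentiated cells. Rspo2 (chromosome 15, 43020794 to 43170826), which acts in limb growth and at the nerve-muscle synapse, was at 20.6 and 25.2 CPM in MEF and 8.37 and 6.58 CPM in transdifferentiated cells, while the muscle libraries held 4 and 0 counts. Its log2 fold change was -7.77 ± 0.65 in muscle against MEF, -1.61 ± 0.42 in transdifferentiated cells against MEF and 6.16 ± 0.65 in transdifferentiated cells against muscle (edgeR adjusted p = 3.6e-05, 0.0209 and 6.6e-04). The fall in transdifferentiated cells was not called without MEF replicate 2 (0.0516) or Transdifferentiated replicate 2 (0.0664). Rspo3, which is needed for vessel growth in the embryo, was at 9.79 and 10.1 CPM in MEF, 3.45 and 2.19 CPM in muscle and 9.27 and 10.2 CPM in transdifferentiated cells. MEF and transdifferentiated cells overlapped and both lay above muscle. The log2 fold change of Rspo3 was -1.81 ± 0.36 in muscle against MEF (edgeR adjusted p = 0.00432), 1.78 ± 0.36 in transdifferentiated cells against muscle (adjusted p = 0.0148; 0.145 without Muscle replicate 2) and -0.03 ± 0.34 between transdifferentiated cells and MEF (adjusted p = 0.954). Rspo1 had 0 counts in both muscle libraries, 27 and 16 in MEF and 17 and 23 in transdifferentiated cells. It was at least 7.29-fold lower in muscle than in MEF and at least 6.66-fold higher in transdifferentiated cells than in muscle (edgeR adjusted p = 0.00317 and 0.0112; 0.0717 and 0.0619 for the second without Muscle replicate 1 or 2).

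The Lgr receptors for R-spondins did not move together. Lgr4, the broadly expressed member, was at 51.2 and 68.8 CPM in MEF, 15.3 and 16.5 CPM in muscle and 47.9 and 36.4 CPM in transdifferentiated cells. It fell in muscle (-1.91 ± 0.29, edgeR adjusted p = 9.9e-04) and was higher in transdifferentiated cells than in muscle (1.40 ± 0.28, adjusted p = 0.0149), the latter lost without Muscle replicate 1 (0.133) or 2 (0.121) or Transdifferentiated replicate 1 (0.0664). Lgr5 (chromosome 10, 115450311 to 115587780), the marker of intestinal stem cells, was at 31.5 and 30.4 CPM in MEF, 0.895 and 1.22 CPM in muscle and 15.2 and 13.4 CPM in transdifferentiated cells. The transdifferentiated cells lay between the references and apart from both. Its log2 fold change was -4.88 ± 0.35 in muscle against MEF (edgeR adjusted p = 1.4e-05), 3.77 ± 0.34 in transdifferentiated cells against muscle (adjusted p = 3.3e-04) and -1.11 ± 0.29 in transdifferentiated cells against MEF (adjusted p = 0.0195). The last call was lost without MEF replicate 1 (0.0682) or Transdifferentiated replicate 1 (0.0593) or 2 (0.0821).

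Lgr6, which marks stem cells of the skin, differed in order from Lgr4 and Lgr5. It was at 7.54 and 4.37 CPM in MEF, 15.6 and 13.7 CPM in muscle and 2.19 and 1.74 CPM in transdifferentiated cells, so that muscle was highest and transdifferentiated cells lowest with no overlap. Fzd6 showed the same order with no edgeR call, and Dkk2 and Wnt2 also lay below every reference library in transdifferentiated cells. By DESeq2 Dkk2 was called lower there than in MEF and in muscle (adjusted p = 0.0301 and 0.024). Lgr6 was the single member that edgeR called lower in transdifferentiated cells than in both references. Its log2 fold changes were -1.60 ± 0.40 against MEF and -2.90 ± 0.40 against muscle (edgeR adjusted p = 0.0172 and 0.00262). The first was not called without MEF replicate 1 (0.101) or Transdifferentiated replicate 2 (0.0684). Its rise in muscle (1.30 ± 0.37, adjusted p = 0.0243) was not called without MEF replicate 2 (0.128), Muscle replicate 1 (0.121) or Muscle replicate 2 (0.0826). Per kilobase, Lgr6 made up 43.2% ± 3.77 of the summed Lgr level in muscle, 6.36% ± 3.10 in MEF and 3.25% ± 0.0431 in transdifferentiated cells.

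**Figure D3:**
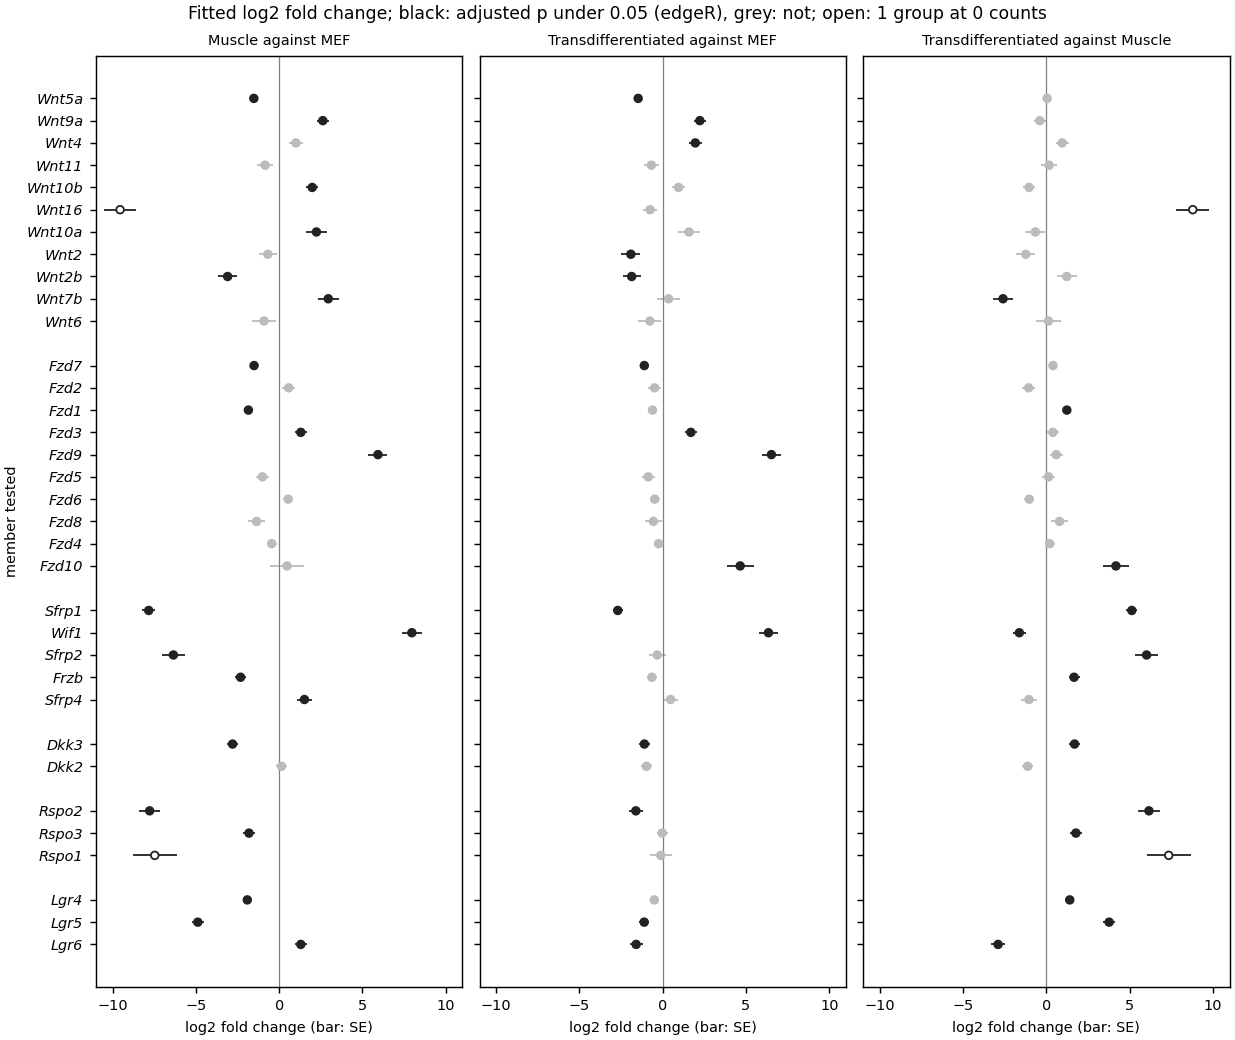
Fitted log2 fold change with its SE for each tested member in the 3 comparisons; black marks an adjusted p under 0.05 (edgeR), grey none, and open symbols a comparison with a group at 0 counts, where the fitted value depends on the prior count. The R-spondins, Sfrp1, Sfrp2 and Lgr5 lie left of 0 in muscle against MEF and right of 0 in transdifferentiated cells against muscle.

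Across the 3 comparisons, transdifferentiated cells took several positions relative to the references. Fzd3, Fzd9 and Wnt9a were called higher than in MEF in both muscle and transdifferentiated cells with no call between those 2, and Fzd7, Wnt2b and Wnt5a were called lower in the same way. Dkk3, Lgr5, Rspo2 and Sfrp1 were lower than in MEF and higher than in muscle. Frzb, Fzd1, Lgr4, Rspo1, Rspo3, Sfrp2 and Wnt16 were lower in muscle than in either other group, with no call between transdifferentiated cells and MEF. A missing call does not show that 2 groups were alike.

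Some genes of ligand release and some co-receptors were called as well. Porcn, the enzyme that attaches the lipid to Wnt proteins, was at 11.3 and 7.81 CPM in MEF, 124 and 125 CPM in muscle and 23.2 and 45.6 CPM in transdifferentiated cells, and the 3 groups did not overlap. It rose by 3.70 ± 0.39 on the log2 scale in muscle and by 1.85 ± 0.37 in transdifferentiated cells (edgeR adjusted p = 1.4e-04 and 0.00606) and was lower in transdifferentiated cells than in muscle (adjusted p = 0.0126; 0.0693 and 0.0793 without Muscle replicate 1 or 2). For the pathway lists that follow, the shares of all tested genes called higher and lower were 17.3% and 18.3% for muscle and 15.9% and 11.3% for transdifferentiated cells, each against MEF. Of the 5 tested genes of Wnt modification and release, Porcn was the 1 that rose in each comparison with MEF, and 2 fell, Trabd2b, a membrane protease that trims Wnt (-2.60 ± 0.50 in muscle, edgeR adjusted p = 0.00373, and -1.63 ± 0.47 in transdifferentiated cells, adjusted p = 0.0335), and Tmed5, a cargo carrier of the secretory path (-1.08 ± 0.29 and -1.16 ± 0.29, adjusted p = 0.0175 and 0.0169). The Tmed5 call in muscle did not survive the loss of MEF replicate 2, Muscle replicate 1 or Muscle replicate 2 (0.0585, 0.145 and 0.0537), and that in transdifferentiated cells without MEF replicate 2 or Transdifferentiated replicate 2 (0.0521 and 0.0797). The Trabd2b call in transdifferentiated cells was lost without MEF replicate 1 (0.219), either Muscle library (0.0575 and 0.0579) or Transdifferentiated replicate 1 (0.144). The carrier Wls was at 272 ± 99.4, 202 ± 7.45 and 228 ± 47.8 CPM with no call (adjusted p = 0.305, 0.576 and 0.846).

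Of 9 co-receptor genes 2 rose and 2 fell in muscle relative to MEF, and 3 rose and 1 fell in transdifferentiated cells. In those comparisons 35.6% and 27.3% of all tested genes were called in either direction. Of the 3 that rose, 1 outside the naming rule had 0 counts in both MEF libraries and 24 and 91 in transdifferentiated cells. It passed the count filter through transdifferentiated cells, so its call is no separate support. Musk, the kinase with a Frizzled-like domain that organises the nerve-muscle synapse, went from 0.275 and 0.582 CPM in MEF to 180.2 and 258 CPM in muscle and 23.9 and 39.6 CPM in transdifferentiated cells (8.95 ± 0.51 and 6.17 ± 0.48 as log2 fold changes, edgeR adjusted p = 4.8e-06 and 3.2e-05), and it was lower in transdifferentiated cells than in muscle (-2.79 ± 0.36, adjusted p = 0.00189). Kremen1, a Dickkopf receptor, rose in both (1.92 ± 0.36 and 2.06 ± 0.36, adjusted p = 0.00338 and 0.00331), and Ptk7, a co-receptor of the polarity branch, fell in both (-2.10 ± 0.38 and -1.96 ± 0.38, adjusted p = 0.00275 and 0.00515). Ror1, a Wnt5a receptor, fell in muscle (-1.39 ± 0.32, adjusted p = 0.00938; 0.0524, 0.0808 and 0.0547 without MEF replicate 2, Muscle replicate 1 or Muscle replicate 2). Lrp6 was at 55.5 to 71.9 CPM over the 6 libraries with no call. Its log2 fold changes were -0.19 ± 0.24, -0.12 ± 0.24 and 0.08 ± 0.24.

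Of 14 other secreted or membrane modulators 9 were tested, of which 3 rose and 4 fell in muscle relative to MEF, and 2 rose and 2 fell in transdifferentiated cells (35.6% and 27.3% of all tested genes in either direction). Tspan12, a partner of Fzd4, rose in both (2.71 ± 0.36 and 3.17 ± 0.36, edgeR adjusted p = 5.3e-04 and 3.4e-04). The Wnt inhibitors Apcdd1 (-2.36 ± 0.38 and -1.78 ± 0.37) and Tpbg (-1.45 ± 0.26 and -0.92 ± 0.26) fell in both (adjusted p = 0.00147 and 0.00764, 0.00246 and 0.0271), although Tpbg in transdifferentiated cells was not called without any 1 of the 6 libraries other than MEF replicate 2 (adjusted p = 0.0515 to 0.126). The glypican Gpc3 was at 60.4 and 70.2 CPM in MEF, 1.83 and 4.62 CPM in muscle and 110.3 and 65.5 CPM in transdifferentiated cells, low in muscle alone, with log2 fold changes of -4.36 ± 0.48 in muscle against MEF and 4.79 ± 0.49 in transdifferentiated cells against muscle (edgeR adjusted p = 1.8e-04 and 5.8e-04). The matrix protein Cthrc1 was higher in muscle than in MEF (1.11 ± 0.32, adjusted p = 0.0256), not called without any 1 of those 4 libraries (0.0504 to 0.178). The secreted Lrp5 and Lrp6 inhibitor Sost, at most 1.258 CPM in any library, was called higher than in MEF in both (adjusted p = 0.0457 and 0.022), but not in muscle without any 1 of the MEF or Muscle libraries (0.0639 to 0.193) or by DESeq2 (0.0807), nor in transdifferentiated cells without MEF replicate 1 (0.085) or Transdifferentiated replicate 2 (0.108).

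**Figure D4:**
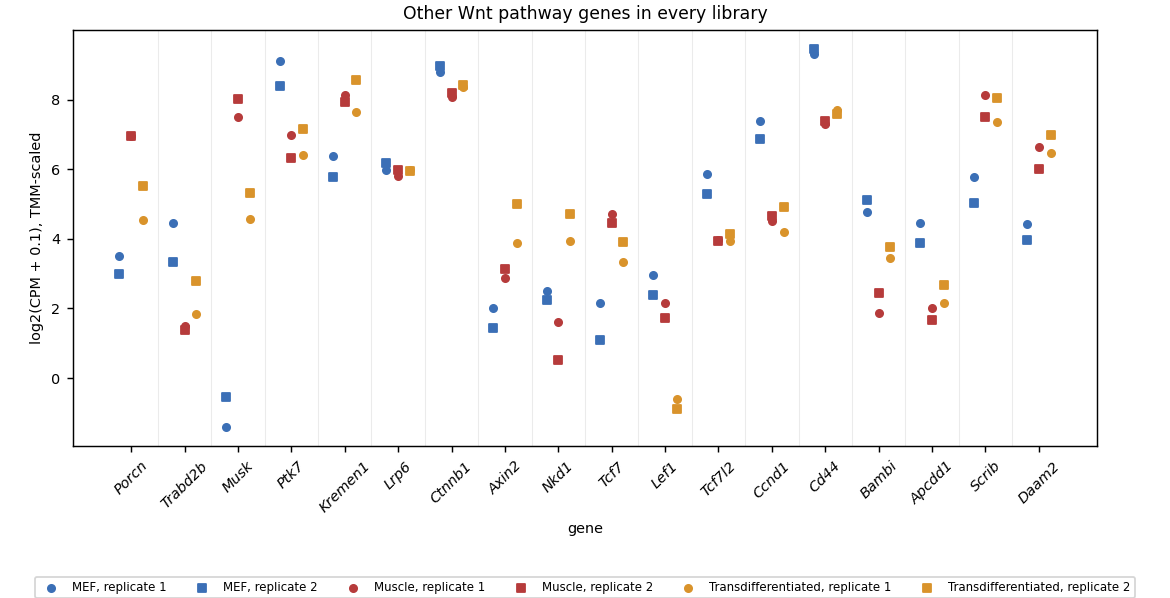
Levels of 18 further Wnt pathway genes on a log2(CPM + 0.1) axis, with 1 point per library, coloured by group and shaped by replicate. Axin2 and Nkd1 are highest in the transdifferentiated cells (orange), Lef1 is lowest there, and Ccnd1 and Cd44 are highest in MEF (blue).

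The transducers in the cytoplasm were called at about the rate of all tested genes (35.6% in muscle and 27.3% in transdifferentiated cells). Of 25 tested, 3 rose and 4 fell in muscle relative to MEF, and 3 rose and 3 fell in transdifferentiated cells, with medians of -0.08 and 0.11. Beta-catenin, Ctnnb1, was at 444 and 504 CPM in MEF, 270.4 and 292 CPM in muscle and 328 and 344 CPM in transdifferentiated cells. Its lower level in muscle (-0.75 ± 0.23, edgeR adjusted p = 0.0284) was not called without MEF replicate 2 (0.117), Muscle replicate 1 (0.166) or Muscle replicate 2 (0.131), and the difference of transdifferentiated cells from MEF missed the threshold (-0.50 ± 0.22, adjusted p = 0.137). Amer1, a scaffold of the destruction complex, rose in both (1.39 ± 0.26 and 1.68 ± 0.27, adjusted p = 0.00343 and 0.00186), and Dvl2, which relays the receptor signal, fell in both (-1.71 ± 0.34 and -1.65 ± 0.34, adjusted p = 0.0044 and 0.00719). Its relative Dvl1 and the ubiquitin ligase subunit Btrc rose in muscle (by 1.26 ± 0.36 and 1.12 ± 0.26, adjusted p = 0.025 and 0.00846). Neither was called without Muscle replicate 1 (0.0859 and 0.0736), nor Dvl1 without MEF replicate 2 (0.0897) or Muscle replicate 2 (0.114).

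Genes commonly read as beta-catenin targets moved both ways in transdifferentiated cells. Of 11 tested, 3 were higher and 5 lower than in MEF, and in muscle 1 was higher and 4 lower. Over all tested genes the shares called were 27.3% for transdifferentiated cells and 35.6% for muscle. Axin2, Nkd1, Lef1, Tcf7 and Apcdd1 are on this list and on another one described here. Axin2, a feedback inhibitor and the most used target, was at 3.96 and 2.62 CPM in MEF, 7.20 and 8.69 CPM in muscle and 14.8 and 32.0 CPM in transdifferentiated cells, with no overlap between the 3 groups. It rose in transdifferentiated cells (2.83 ± 0.45, edgeR adjusted p = 0.00201) and narrowly missed the threshold in muscle (1.27 ± 0.44, adjusted p = 0.0501; 0.0241 by DESeq2) and between transdifferentiated cells and muscle (1.56 ± 0.42, adjusted p = 0.0518; 0.00847 by DESeq2). Leaving out MEF replicate 1, or Transdifferentiated replicate 1, gave calls for both differences (0.0419 and 0.0217, 0.0199 and 0.013), as did Transdifferentiated replicate 2 for the first (0.0267) and MEF replicate 2 for the second (0.0213). Nkd1, another feedback inhibitor, was at 5.61 and 4.61 CPM in MEF, 2.98 and 1.34 CPM in muscle and 15.1 and 26.1 CPM in transdifferentiated cells. It was higher in transdifferentiated cells than in MEF (2.01 ± 0.45, edgeR adjusted p = 0.0105) and than in muscle (3.23 ± 0.48, adjusted p = 0.00351). Its lower level in muscle than in MEF missed the threshold (-1.22 ± 0.46, adjusted p = 0.071; 0.0464 without Muscle replicate 1, and 0.0406 by DESeq2).

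Lef1, both a target and a partner of beta-catenin, showed the reverse. It was at 7.76 and 5.09 CPM in MEF, 4.35 and 3.22 CPM in muscle and 0.562 and 0.435 CPM in transdifferentiated cells, lower there than in MEF (-3.68 ± 0.49, edgeR adjusted p = 7.0e-04) and than in muscle (-2.92 ± 0.48, adjusted p = 0.00577). The cyclin Ccnd1 (-2.56 ± 0.33 in muscle and -2.54 ± 0.33 in transdifferentiated cells), the hyaluronan receptor Cd44 (-2.05 ± 0.23 and -1.75 ± 0.23) and the TGF-beta pseudoreceptor Bambi (-2.81 ± 0.34 and -1.35 ± 0.32) fell in both comparisons with MEF (edgeR adjusted p = 4.6e-04 and 7.0e-04, 1.9e-04 and 6.5e-04, 3.4e-04 and 0.0147). Bambi in transdifferentiated cells was not called without MEF replicate 2 (0.0554) or Transdifferentiated replicate 1 (0.0739).

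Of 13 tested nuclear factors 1 rose and 4 fell in muscle relative to MEF, and 2 rose and 3 fell in transdifferentiated cells, where 35.6% and 27.3% of all tested genes were called. Tcf7 was at 4.35 and 2.04 CPM in MEF, 26.2 and 22.0 CPM in muscle and 9.94 and 14.9 CPM in transdifferentiated cells and rose in both (2.92 ± 0.43 and 1.97 ± 0.42, edgeR adjusted p = 9.3e-04 and 0.00879). Its relative Tcf7l2 (-1.65 ± 0.29 and -1.56 ± 0.29) and the corepressor Tle1 (-2.05 ± 0.31 and -1.53 ± 0.31) fell in both (adjusted p = 0.00252 and 0.00443, 0.00112 and 0.00644). The coactivator Pygo1 rose in transdifferentiated cells (1.78 ± 0.37, adjusted p = 0.00745).

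Of 15 planar cell polarity genes 5 rose and 3 fell in muscle relative to MEF, and 4 rose and 0 fell in transdifferentiated cells, against 35.6% and 27.3% of all tested genes called in either direction. By DESeq2 the first pair of counts was 6 and 3 and the second 5 and 0. At an unadjusted p under 0.05 by edgeR they were 7 and 3, and 5 and 0. Against muscle 2 were higher and 0 lower in transdifferentiated cells (7.58% and 2.46% of all tested genes). Those counts were 1 and 0 by DESeq2, and 5 and 1 at the unadjusted p. Other lists moved too, such as the transducers in transdifferentiated cells against MEF, from 3 and 3 to 8 and 3 at the unadjusted p. The junction scaffold Scrib was at 54.4 and 32.3 CPM in MEF, 280.5 and 181 CPM in muscle and 164 and 264 CPM in transdifferentiated cells, log2 rises of 2.41 ± 0.38 and 2.31 ± 0.38 (edgeR adjusted p = 0.00134 and 0.00238). The formin Daam2 (2.14 ± 0.34 and 2.54 ± 0.34) and the cadherin Celsr2 (2.47 ± 0.53 and 2.21 ± 0.53) rose in both as well (adjusted p = 0.00134 and 8.4e-04, 0.00649 and 0.0148; 0.0976 for the last without Transdifferentiated replicate 2). Prickle2 fell in muscle (-2.99 ± 0.50, adjusted p = 0.00191) and was higher in transdifferentiated cells than in muscle (2.34 ± 0.49, adjusted p = 0.0183; 0.0755 without Muscle replicate 2). Vangl1 fell in muscle (-1.38 ± 0.34, adjusted p = 0.0128; 0.0543 and 0.117 without MEF replicate 1 or Muscle replicate 2), as did Celsr1, which had 0 counts there and at most 0.605 CPM elsewhere (adjusted p = 0.0131; 0.07 and 0.0549 without Muscle replicate 1 or 2).

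The authors' deposited table of their own comparison, which lists genes past a fold threshold, held 13 of the 46 members. Its header names no contrast, and the sign of all 2645 of its genes tested here was that of MEF over muscle. Of these, 10 were higher in MEF and 3 in muscle in the authors' deposited table, the last being Wif1, Fzd9 and Wnt9a, with log2 fold changes of -7.57, -5.65 and -2.35. On the MEF side, Sfrp1 was at 7.80 in the authors' deposited table, and Wnt16, with 0 counts in muscle, has a fitted value there that is no bound on its change. All 12 of these members that were tested here were called here in the same direction, and the thirteenth, Dkk1, was not tested. Both comparisons use the same libraries, and the contrast was read from the signs found here, so the shared direction is no independent support.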

How the data were processed

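Single-end 75-base reads of mRNA libraries from 6 samples, 2 in each of 3 groups, were counted by the authors, who deposited raw counts per gene symbol. The submitters' processing notes name DESeq2 1.26.0, featureCounts 1.6.2, HISAT2 2.1.0, Trim Galore 0.6.0 and mm10. Neither the gene models nor the strandedness used for counting is given in the sources used here, so reads of a gene and an antisense partner cannot be told apart; Wnt5a overlaps the antisense gene Gm2670, which held 4 to 23 counts. Per the file headers, the authors' deposited table of their comparison gives log2 fold changes with adjusted p-values, and a mean signal over libraries that was not used.

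The counts were fitted with edgeR 4.0.16 in R 4.3.3 by the quasi-likelihood test (robust, legacy dispersion, TMM factors, filterByExpr by group, all 6 libraries), with Benjamini-Hochberg adjustment over 17400 genes and a call at an adjusted p under 0.05. SE is the log2 fold change divided by the square root of F. CPM used TMM factors, and lengths per kilobase and gene coordinates came from GENCODE M21 on mm10, in which 53362 of 55286 symbols matched. Alternatives were RLE and upper-quartile factors, DESeq2 1.42.0, no low-count filter, a fit of the 2 groups alone, the version 4 dispersion of edgeR, a replicate block, and leaving out each library.

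Every member is named; those at 5 CPM or more in a group mean and called in at least 1 comparison are described by library. In each pathway list the genes named are up to 4 with the smallest adjusted p and any called against the majority of its list, with Axin2, Lef1, Ctnnb1 and Lrp6; Wls was added after its values were seen. The members and lists were chosen with earlier results of these data known, and counts over them have no test. Of 166 list genes 165 were found in the table, Aes not by that symbol. Smooth muscle and pericyte, epithelial and adipocyte markers were counted as well, with 8, 5 and 3 tested. In muscle 5, 2 and 3 were lower than in MEF and 2, 0 and 0 higher (18.3% and 17.3% of all tested genes). In transdifferentiated cells 5, 3 and 1 were lower than in MEF and 2, 0 and 0 higher (11.3% and 15.9%). Against muscle 1, 1 and 0 were lower there and 2, 1 and 1 higher (2.46% and 7.58%).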

Additional observations from a re-analysis of the deposited data

How the results depend on the processing

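With 2 libraries a group, 3 residual degrees of freedom and a biological coefficient of variation of 27.3%, a number of calls depended on single libraries. Leaving out 1 library at a time gave, for the members, 5 to 9 higher in muscle than in MEF, 4 to 9 lower in transdifferentiated cells than in MEF, and 5 to 12 higher and 1 to 4 lower in transdifferentiated cells than in muscle. Over all genes it gave 1951 to 3110 higher and 1756 to 3383 lower in muscle than in MEF, 1228 to 1867 lower in transdifferentiated cells than in MEF, and 533 to 1533 higher and 129 to 574 lower in transdifferentiated cells than in muscle. Where 1 library was left out, its group had a lone sample that was assumed to vary like the other groups. Without the low-count filter 5 members and 670 genes were lower in transdifferentiated cells than in muscle, against 3 and 428, and by DESeq2 5 members were. RLE and upper-quartile factors, the version 4 dispersion of edgeR and a fit of only the 2 groups compared kept every count of calls within 1.5 times, and no named gene that was called, or became so, changed its direction under any alternative tried. Under RLE factors 3 of 156 group levels moved by more than 1 SD between replicates, with no level off by more than 1.04-fold.

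Replicate numbers are shared by the 3 groups, but nothing says that equal numbers mark a shared source. Deviations of replicate 1 from the group means correlated at 0.31 between MEF and muscle. They correlated at -0.53 between MEF and transdifferentiated cells and at -0.29 between muscle and transdifferentiated cells. The sign of each value depends on which library was numbered 1, so whether libraries share a source was not tested by it. With the replicate number as a block, 9 members rose and 14 fell from MEF to muscle, 6 rose and 7 fell from MEF to transdifferentiated cells, and 11 rose and 1 fell from muscle to transdifferentiated cells, with 265 genes in all lower in the last comparison. Of the members, the block ended the calls of Lgr5 and Wnt2b in transdifferentiated cells against MEF (adjusted p = 0.0608 and 0.0615) and of Fzd1, Wif1 and Wnt7b against muscle (adjusted p = 0.0525, 0.0768 and 0.0658). Of the pathway genes named, it ended those of Ctnnb1 and Sost in muscle against MEF (0.0842 and 0.0652), of Tpbg and Trabd2b in transdifferentiated cells against MEF (0.0747 and 0.071), and that of Celsr1 in transdifferentiated cells against muscle (0.0881). The cause of these changes was not tested.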
